A study of Homo sapiens with 12 samples.

Results

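H3K4me3, the trimethylated form of lysine 4 of histone H3, was compared between the colorectal adenocarcinoma cell lines SW620 and SW480 by the enriched regions called in each line. The comparison drew on all 34611 H3K4me3 regions, 18296 of SW480 and 16315 of SW620, out of 262931 regions and peaks in the 10 lists of the series. A region counted as shared when at least 1 bp of it was also covered by H3K4me3 of the other line, and as line-only otherwise. Overlapping regions of both lists were also merged into 19288 union regions, in which the length covered by each line was measured.

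The series profiled H3K4me2, H3K4me3, H3K27ac, H3K36me3 and the transcription factor FOXA2 by ChIP-seq (sequencing of DNA recovered with an antibody), with an input library of each line, in 12 samples. Both lines were untreated and grown in the same serum-supplemented medium, and the labels describe SW480 as Dukes' type B and SW620 as Dukes' type C, stages of colorectal cancer without and with lymph node spread. As background, both lines came from a single patient, SW480 from the primary tumour and SW620 from a lymph node metastasis. Each line is 1 culture with 1 library per antibody, so no difference between the lines has a replicate check and no p-value is given. Intervals in parentheses are 95% Wilson intervals over regions. They describe counting error alone, since regions close together can share their state.

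H3K4me3 is laid down around the start sites of active and poised genes, most often at promoters rich in CG dinucleotides. Its width follows how far the modification spreads to the nucleosomes on either side, and very wide regions are known at genes that define a cell's identity. H3K4me2 surrounds H3K4me3 at promoters and also marks enhancers. H3K27ac marks promoters and enhancers in use, H3K36me3 covers the bodies of transcribed genes, and FOXA2 is a forkhead transcription factor that opens chromatin in endoderm-derived tissues. Coordinates are hg19. Gene names are general knowledge of that map, added as background to the intervals where they are well known. No hg19 annotation was used here, so start sites, exons and cell type markers were not set against the regions.

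The H3K4me3 libraries differed in quality, per the file headers. SW480 had 16400013 tags with 73.0% in regions, and SW620 had 12791745 tags with 52.0% in regions. The caller required nearly the same number of tags in a peak, 22 in SW480 and 21 in SW620, so a site had to be stronger relative to depth to be called in SW620. The fragment lengths used were 164 and 196 bp. The H3K27ac libraries differed in the same direction, with 58.5% of tags in regions in SW480 and 27.5% in SW620, and the H3K4me2 libraries did not, with 45.8% and 50.7%. Higher or lower calling in SW620 and a biological difference between the lines cannot be told apart for H3K4me3 and H3K27ac.

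The promoter sequences of 3 genes at line-only regions, from the RefSeq table of build GRCh38.p14, are shown because they are among the widest line-only intervals described further on. Each sequence is the 250 bases before the annotated start, 5′ to 3′ on the gene's strand, with every CG dinucleotide in capitals. All 3 genes lie on the minus strand, on chromosomes 3, 12 and 14 in this order. WNT5A has 2 such windows in the table and the first is shown.
WNT5A: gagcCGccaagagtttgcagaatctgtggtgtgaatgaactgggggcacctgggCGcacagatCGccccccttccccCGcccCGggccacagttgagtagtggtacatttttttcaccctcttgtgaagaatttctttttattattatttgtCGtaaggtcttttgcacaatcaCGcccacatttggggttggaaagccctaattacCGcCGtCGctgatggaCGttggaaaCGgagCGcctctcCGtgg
KRT5: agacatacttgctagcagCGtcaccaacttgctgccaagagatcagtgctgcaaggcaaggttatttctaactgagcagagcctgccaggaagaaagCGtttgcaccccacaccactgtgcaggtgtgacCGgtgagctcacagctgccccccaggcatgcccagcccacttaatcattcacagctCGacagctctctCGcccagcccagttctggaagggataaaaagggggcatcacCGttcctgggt
GPX2: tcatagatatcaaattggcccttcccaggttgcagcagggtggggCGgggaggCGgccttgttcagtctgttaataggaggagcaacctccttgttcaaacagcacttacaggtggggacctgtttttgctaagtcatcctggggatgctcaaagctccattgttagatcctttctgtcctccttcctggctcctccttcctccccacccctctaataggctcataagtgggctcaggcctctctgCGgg
The WNT5A window held 14 CG dinucleotides, the KRT5 window 6 and the GPX2 window 3. Over all 35116 promoter windows of the table the median was 11, with quartiles of 3 and 23. As many as 14 were found in 44.8% of windows, as few as 6 in 41.1%, and as few as 3 in 29.3%. The sequences are from another build than the regions, and whether these exact bases lie in the regions was not tested.

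The first question was how far the H3K4me3 landscape was common to the lines and what set the line-only regions apart. Of the 19288 union regions, 15071 (78.1%) were shared, 3108 (16.1%) were called in SW480 only and 1109 (5.75%) in SW620 only. Counted as the authors' regions, 3123 of SW480 and 1118 of SW620 were line-only, 17.1% (16.5 to 17.6) and 6.85% (6.47 to 7.25) of the lists. When both lists were limited to the same number of widest regions, these shares were 10.8% and 10.5%. Shared regions were nearly all 1 to 1, so lists of equal length must give nearly equal shares. Their closeness therefore says nothing about the lines. Counting as shared only pairs that covered 50% or more of each other, on both sides, gave 22.4% line-only in SW480 and 13.0% in SW620.

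Line-only regions were narrow. The smallest width the caller gives is 1001 bp, and 49.0% of SW480-only and 52.9% of SW620-only regions had exactly that width, against 4.52% and 8.67% of shared ones. Median widths were 1251 bp for SW480-only and 2299 bp for shared regions of SW480, and 1001 and 2181 bp in SW620. Below 1.5 kb the line-only share was 53.3% (51.8 to 54.8) in SW480 and 22.3% (20.9 to 23.7) in SW620. From 2 kb upwards the shares were 2.58% (2.29 to 2.91) and 1.44% (1.22 to 1.71). In SW480 the share was 3.20% (2.80 to 3.65) from 2000 to below 3000 bp and 1.01% (0.687 to 1.49) from 3000 to below 4000 bp. In SW620 these shares were 1.41% (1.15 to 1.74) and 1.37% (0.961 to 1.95). Of the regions of at least 4 kb, 25 of 1050 in SW480 and 16 of 865 in SW620 were line-only, 2.38% (1.62 to 3.49) and 1.85% (1.14 to 2.98). A small set of wide regions was therefore present in 1 list and missing from the other.

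**Figure D1:**
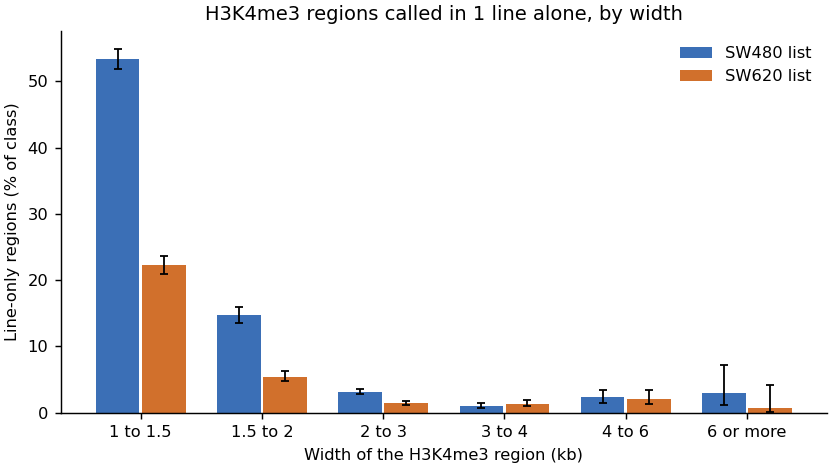
Share of H3K4me3 regions called in 1 line alone, by width class in kb on the horizontal axis, for the SW480 list (blue) and the SW620 list (orange). Bars are percentages of the class and error bars are 95% Wilson intervals. The shares fall from 53.3% and 22.3% in the narrowest class to under 4% in every class from 2 kb upwards.

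Most line-only regions stood alone. The nearest H3K4me3 region of the other line lay a median of 48.0 kb from SW480-only regions and 32.8 kb from SW620-only ones. Only 56 SW480-only (1.79%) and 55 SW620-only regions (4.92%) had one within 1 kb. At the other side of the rule, 11 shared regions of SW480 and 10 of SW620 overlapped the other line by 100 bp or less. Few regions thus lay close in position to the border set by the 1 bp rule. The rule of 50% overlap on both sides moved more regions, with 4101 line-only in SW480 and 2120 in SW620. How close regions lay to the calling threshold is not shown by these positions.

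The 10 widest SW480-only regions were 5.03 to 8.37 kb wide. All 10 overlapped H3K4me2 and H3K27ac in SW480, 8 overlapped H3K36me3 there and 1 in SW620. In SW620, 9 of the 10 had some H3K4me2 and 7 some H3K27ac, and 1 held an SW620 FOXA2 peak. Over all SW480-only regions of at least 2 kb these shares were 77.3%, 22.3% and 7.95%. The widest, 8365 bp on chromosome 7 from 120953550 to 120961914, had 6459 bp of H3K27ac in SW480 and 0 in SW620.

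The SW480-only region of 6.64 kb on chromosome 3 from 55519127 to 55525763 lies at the start of WNT5A, a ligand of mainly beta-catenin-independent Wnt signalling. H3K27ac covered all 6637 bp of it in SW480 and none in SW620, and H3K4me2 covered 6518 and 1251 bp. Within 20 kb on either side, H3K36me3 covered 17.2 kb in SW480 and 0 in SW620. This window was looked at after its values were seen. This 1 locus had every mark of an active gene in SW480 and a shorter stretch of H3K4me2 in SW620.

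Of the intervals at AXIN2, a feedback inhibitor and classic target of Wnt signalling, both SW480-only ones lie at lower coordinates than a shared region at its start. The SW480-only regions spanned 7.29 kb (chromosome 17, 63503962 to 63511256) and 6.64 kb (63530705 to 63537345), both with H3K27ac along their full length in SW480. In SW620, H3K27ac covered 2096 and 1001 bp of them. The region at the start of AXIN2 (63544874 to 63558925) was shared, with 13619 bp covered as 1 piece in SW480 and 10014 bp as 2 pieces in SW620. H3K36me3 within 20 kb of that shared region covered 31.5 kb in SW480 and 29.5 kb in SW620. AXIN2 thus had its transcribed-body mark in both lines and a broader H3K4me3 territory in SW480.

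On chromosome 12, 5909 bp (52911234 to 52917142) at KRT5, a keratin of basal epithelial cells, had 3224 bp of H3K4me2 and 3212 bp of H3K27ac in SW620. On chromosome 2, 5025 bp (109577788 to 109582812) inside EDAR, the ectodysplasin receptor, had 2505 and 2594 bp in SW620. On chromosome 18, 5585 bp (46465002 to 46470586) inside SMAD7, an inhibitor of TGF-beta signalling, had 5008 bp of H3K4me2 and 1263 bp of H3K27ac in SW620. H3K36me3 within 20 kb of the EDAR region covered 22.5 kb in SW480 and 1.00 kb in SW620, and near the SMAD7 region 18.2 kb and 0.

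In SW620 the 10 widest line-only regions measured 4.36 to 8.47 kb. All 10 had H3K4me2 and H3K27ac in SW620, 7 had H3K4me2 and 4 had H3K27ac in SW480, and 6 held an SW620 FOXA2 peak. Over all SW620-only regions of at least 2 kb, H3K4me2 of SW480 lay on 67 of 134, H3K27ac of SW480 on 36.6% and SW620 FOXA2 on 29.1%. At shared SW620 regions of that width these were 9138 of 9142, 99.3% and 8.51%. The widest lay on chromosome 2 from 240212756 to 240221230, inside HDAC4, which encodes a class IIa histone deacetylase. H3K27ac covered all 8475 bp of it in SW620 and 2075 bp in SW480. Another of the 10 lay in the same gene, from 240135320 to 240140062, with 4621 bp of H3K27ac in SW620 and 0 in SW480.

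The SW620-only region of 4585 bp on chromosome 14 (65406362 to 65410946) covers GPX2, the glutathione peroxidase of the gut epithelium. H3K4me2 covered 4249 bp and H3K27ac 3695 bp of it in SW620, and both covered 0 in SW480. H3K36me3 within 20 kb covered 23 kb in SW620 and 9.15 kb in SW480. The region and its flanks held 2 SW620 FOXA2 peaks. On chromosome 17, 5847 bp (56406991 to 56412837) at MIR142, a microRNA gene best known from blood cells, had 5646 bp of H3K27ac in SW620 and 374 bp in SW480. On chromosome 20, 4595 bp (61295192 to 61299786) in SLCO4A1, an organic anion transporter gene, had 3471 bp of H3K4me2 and 3339 bp of H3K27ac in SW480, without an H3K4me3 call.

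**Figure D2:**
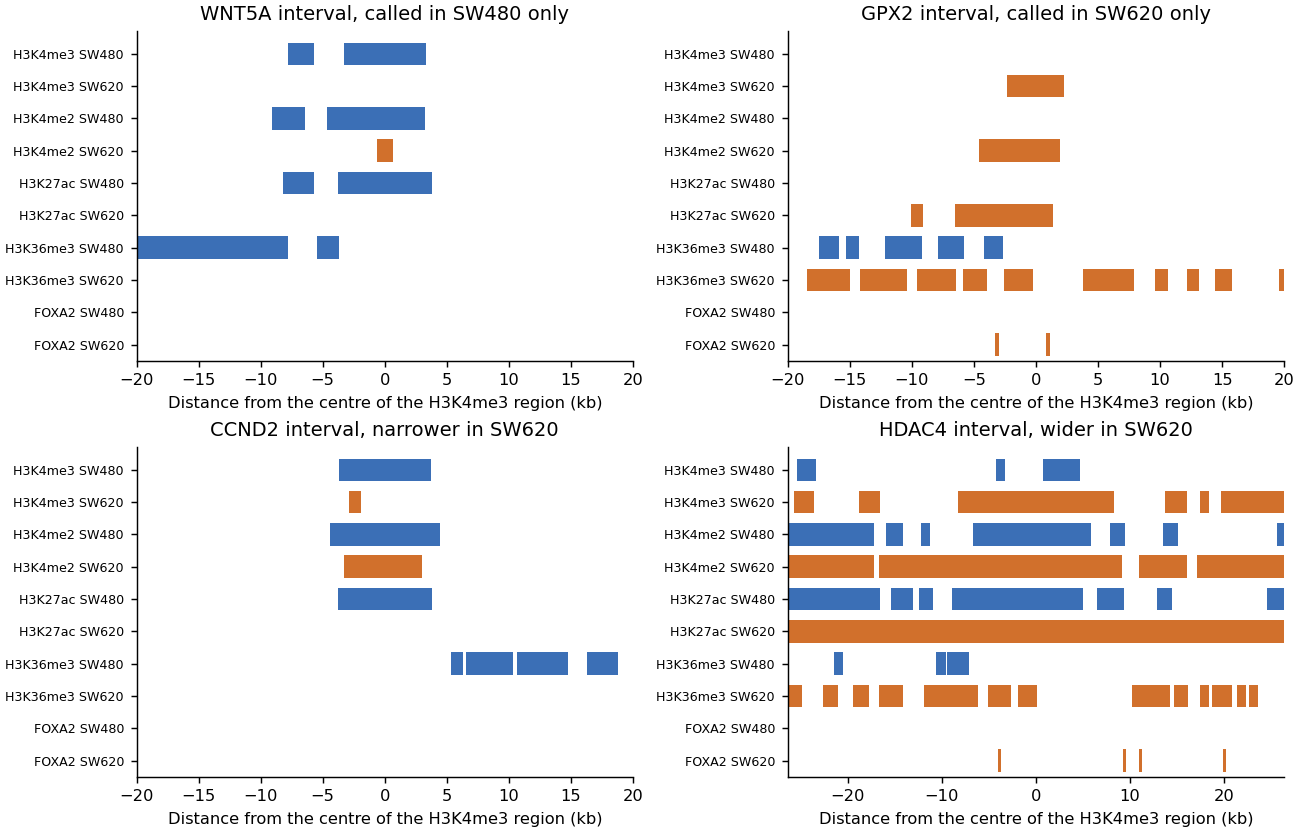
Maps of 4 H3K4me3 intervals, each with the regions of the 5 antibodies in SW480 (blue) and SW620 (orange) as boxes. The horizontal axis is the distance in kb from the centre of the H3K4me3 region. The WNT5A interval has H3K4me3 in SW480 alone (6637 bp) and the GPX2 interval in SW620 alone (4585 bp), while CCND2 falls from 7381 to 1001 bp and HDAC4 rises from 4962 to 16505 bp.

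The second question was how the width of shared regions differed. Most shared regions had nearly the same width in both lines. Over the 15071 shared union regions the covered length in SW620 relative to SW480 had a median of 0.975-fold (log2 -0.04), with quartiles of 0.829 and 1.07-fold. SW620 covered less in 55.7% (54.9 to 56.5) and more in 40.0% (39.2 to 40.7), and the lengths were equal in 4.33%. The middle 90% of differences lay between -962 and 666 bp. The median fold stayed between 0.948 and 1.00 in every width class, from 1 kb to over 6 kb.

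Changes of at least 2-fold were rare. SW620 was narrower by that much in 191 shared union regions, 1.27% (1.10 to 1.46), and wider in 84, 0.557% (0.450 to 0.689). The narrowed regions had a median covered length of 3005 bp in SW480 against 1251 bp in SW620, and the widened ones 1503 against 3334 bp. With regions of at least 2 kb in both lines the counts were 23 in either direction. That setting drops regions that are under 2 kb in SW620 because they narrowed, so it cannot show where the excess lay. By mean width of the lines, 70 were narrower and 32 wider in SW620 from 2000 to below 3000 bp. The counts were 25 and 13 from 3000 to below 4000 bp, 14 and 12 from 4000 to below 6000 bp, and 0 and 4 from 6000 bp upwards. At 1.5-fold, 1010 (6.70%) were narrower and 344 (2.28%) wider in SW620. In H3K27ac, measured the same way, 5.59% of shared union regions were at least 2-fold narrower and 2.68% wider in SW620, and in H3K4me2 1.79% and 2.34%.

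Length outside the common part lay mostly at the flanks of shared regions. Both lines covered 31.4 Mb. SW480 alone covered a further 5.67 Mb within shared union regions and 4.11 Mb in SW480-only regions. SW620 alone covered 3.94 Mb and 1.54 Mb. Flanks therefore made up 57.9% of the SW480-alone and 71.9% of the SW620-alone length.

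The edges moved on both sides and by little. In the 14951 union regions with 1 region of each line, the median shift of an edge was 206 bp. Both edges agreed within 250 bp in 49.1% of regions, and an edge lay over 1 kb apart in 6.86%. SW480 reached further at both edges in 37.0%, SW620 in 25.4%, and each line at 1 edge in 37.3%. Among the regions narrower by 2-fold, over 80% of the change lay at a single edge in 62 of 190, and among the wider ones in 26 of 83. Most large changes thus involved both flanks.

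**Figure D3:**
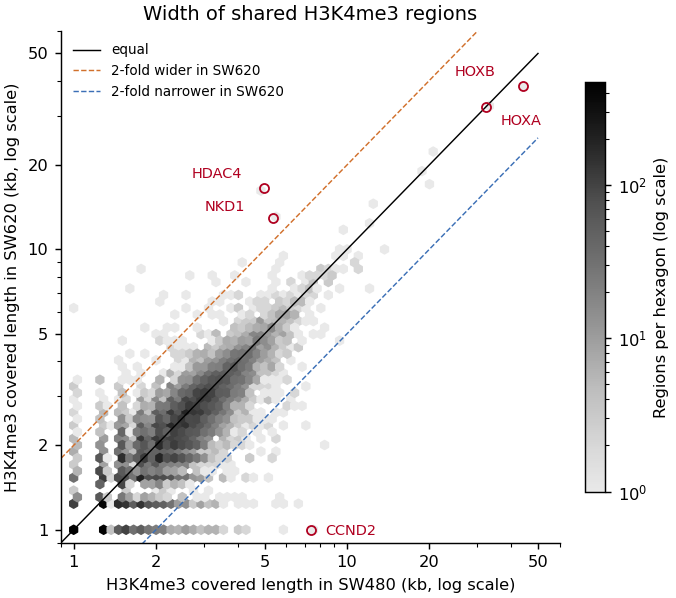
Covered length of each shared H3K4me3 union region in SW480 (horizontal, kb, log scale) and SW620 (vertical, kb, log scale), with darker hexagons for more regions, the line of equality and the 2-fold lines dashed. Open circles mark 5 named intervals. The cloud follows equality, HDAC4 and NKD1 lie above the upper 2-fold line, CCND2 lies below the lower one, and HOXA and HOXB lie at the wide end near equality.

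The largest loss of width lay at CCND2, the gene of cyclin D2, which drives cells from G1 into S phase. Loss and gain mean less and more in SW620 than in SW480, not an order in time. On chromosome 12 from 4377529 to 4384909, H3K4me3 covered 7381 bp in SW480 and 1001 bp in SW620, 7.37-fold less. H3K27ac covered all 7381 bp in SW480 and 0 in SW620, while H3K4me2 covered 7381 and 6260 bp. H3K36me3 within 20 kb covered 13.4 kb in SW480 and 0 in SW620. In SW620 the promoter thus had an H3K4me2 domain and the smallest H3K4me3 call, without acetylation and without H3K36me3 within 20 kb. H3K36me3 further along the gene was not looked at.

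Other large losses lay on chromosomes 9 and 10. The intervals from 140347419 to 140355507 and from 140331238 to 140337722 on chromosome 9, close neighbours, went from 8089 to 2045 bp and from 6485 to 1255 bp. On chromosome 10, the interval from 116282456 to 116288364 went from 5909 to 1001 bp, with H3K27ac going from 5274 bp to 0. The HOXB homeobox cluster (chromosome 17, 46651693 to 46697698) was covered over 44109 bp in SW480 and 38162 bp in SW620, 1.16-fold less.

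The largest gain of width lay inside HDAC4. The interval from 240184843 to 240201347 on chromosome 2 was covered over 4962 bp as 2 pieces in SW480 and over 16505 bp as 1 piece in SW620. H3K27ac covered 15011 bp of it in SW480, against 16505 bp in SW620. H3K4me2 covered 12917 and 16505 bp. H3K36me3 within 20 kb covered 4.26 kb in SW480 and 28.9 kb in SW620, and 5 SW620 FOXA2 peaks lay there. With the wide SW620-only regions described above, which lie on either side, at least 3 separate H3K4me3 intervals of HDAC4 were absent or shorter in SW480. More SW620-only regions inside the gene are described further on.

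NKD1, a Wnt-induced inhibitor of Wnt signalling, had the next largest gain, from 5371 to 12973 bp on chromosome 16 from 50581119 to 50594091. H3K27ac covered 6382 bp there in SW480 and 12973 bp in SW620. H3K36me3 within 20 kb was long in both lines, 30.8 and 35.1 kb. The other 3 largest gains lay on chromosome 1 from 1364508 to 1373090 (1775 to 8583 bp) and on chromosome 7 from 36323856 to 36331122 (1615 to 7267 bp) and from 150075101 to 150083928 (2655 to 7991 bp). All 5 gained intervals held at least 1 SW620 FOXA2 peak, as did 9.08% of all shared union regions, and all 5 had H3K27ac over their full length in SW620. The intervals are long, and the HOXA, HOXB and PLEC intervals, which are longer still, also overlapped an SW620 FOXA2 peak.

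Of the other wide domains, the HOXA cluster interval on chromosome 7 from 27187250 to 27219570 was covered over 32221 bp in SW480 and 32148 bp in SW620. It was named after its values were seen. The PLEC interval on chromosome 8 from 145004518 to 145028334, at the gene of the cytolinker plectin, was covered over 20401 bp in 2 pieces in SW480 and 22753 bp in 3 pieces in SW620.

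Regions that changed in width were then set against other antibodies, whose libraries did not enter the choice. Where H3K4me3 was at least 2-fold narrower in SW620, H3K27ac was called in SW480 alone at 119 of 191 union regions, 62.3% (55.3 to 68.9), and in SW620 alone at 0. Where it was wider, H3K27ac was called in SW620 alone at 17 of 84, 20.2% (13.0 to 30.0), and in SW480 alone at 0. Of shared regions within 2-fold, 11.5% had H3K27ac in SW480 alone and 1.32% in SW620 alone. The lower share of SW620 H3K27ac tags in regions moves with these values, and its part was not tested.

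H3K4me2 was called in both lines at 190 of the 191 narrowed and all 84 widened regions. Its length moved the same way as H3K4me3 but less, with a median of 0.843-fold in the narrowed and 1.42-fold in the widened regions. H3K27ac, where called in both lines, had medians of 0.566-fold and 1.52-fold in 64 regions each. Across shared union regions the log2 width ratios of H3K4me3 and H3K27ac had a Pearson correlation of 0.37 (Spearman 0.33, 12405 regions), and those of H3K4me3 and H3K4me2 0.19 (0.17, 14955 regions). These are correlations over regions of the same cultures, which are not independent, and the covered lengths of all marks were cut at the same union region.

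SW620 FOXA2 peaks lay in 26 of the 84 widened regions, 31.0% (22.1 to 41.5), and in 16 of the 191 narrowed ones, 8.38% (5.22 to 13.2). Regions within 2-fold held one in 8.96% (8.51 to 9.43). Median lengths of the union regions were 3334 bp for the widened and 3087 bp for the narrowed class, against 2529 bp for those within 2-fold. At 1.5-fold the shares were 16.9% (13.3 to 21.2) and 7.52% (6.05 to 9.32). SW480 FOXA2 peaks lay in 1 of the 84 widened regions, 1.19% (0.210 to 6.44), and 3 of the 191 narrowed ones, 1.57% (0.536 to 4.52). Of all shared union regions 0.650% held one, a share inside both intervals.

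**Figure D4:**
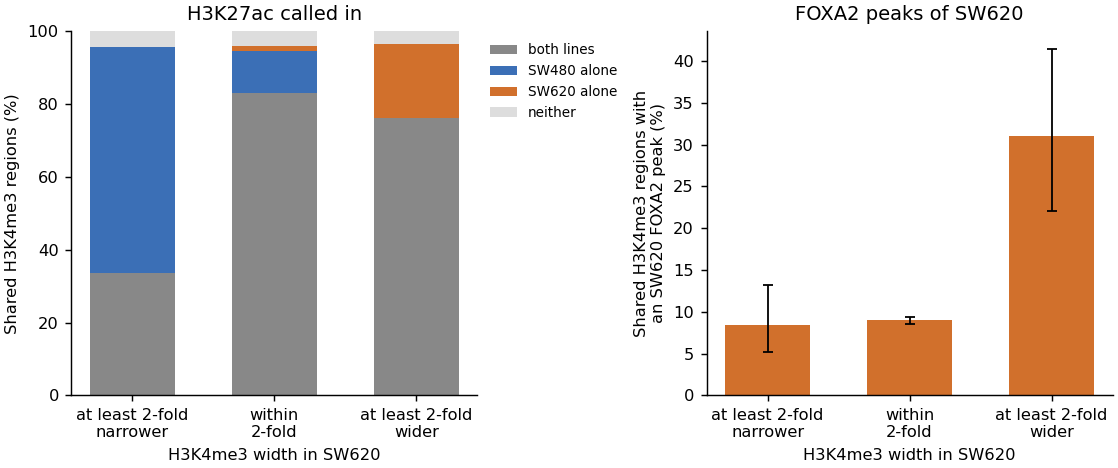
Shared H3K4me3 regions by their width in SW620 relative to SW480 (horizontal). Left, the percentage with H3K27ac called in both lines, in 1 line or in neither; right, the percentage with an SW620 FOXA2 peak, with 95% Wilson intervals. H3K27ac in SW480 alone makes up 62.3% of the narrowed class, and FOXA2 peaks lie in 31.0% of the widened class.

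The third question was whether domains split or joined between the lines. This was rare. Of the 15071 shared union regions, 14951 (99.2%) held 1 region of each line, 64 (0.425%, 0.333 to 0.542) were 1 region in SW480 and several in SW620, 47 (0.312%, 0.235 to 0.414) were several in SW480 and 1 in SW620, and 9 had several in both. One-to-one regions made up 96.4% in both H3K4me2 and H3K27ac and 65.9% in H3K36me3. Median union lengths were 5085 and 5684 bp for domains split in SW620 and SW480, and 2531 bp for one-to-one regions. A split domain holds several pieces of at least 1001 bp, which fixes part of that difference.

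The gaps were short and stayed marked. The 66 gaps of SW620 had a median of 577 bp and the 48 gaps of SW480 one of 633 bp. H3K4me2 of the line with the gap covered it entirely in 58 of 66 and 47 of 48 cases. H3K27ac of that line covered it entirely in 31 of 66 gaps of SW620 and 28 of 48 gaps of SW480, and was absent from 19 and 2. The HOXB interval, 1 region in SW480, was in 4 pieces in SW620, with H3K27ac over 44530 of its 46006 bp. SLC7A5, a transporter of large neutral amino acids, had 1 piece of 11953 bp in SW480 and 2 pieces of 7210 bp in all in SW620 (chromosome 16, 87891667 to 87904339).

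The fourth question was which other marks the line-only regions carried. Nearly all had H3K4me2 in the line where H3K4me3 was called, 96.6% (95.9 to 97.2) in SW480 and 96.5% (95.3 to 97.4) in SW620. What the other line carried there differed in the lists. Of SW480-only regions, 73.3% (71.7 to 74.8) had H3K4me2 in SW620. Of SW620-only regions, 42.3% (39.4 to 45.2) had H3K4me2 in SW480. Among line-only regions of at least 2 kb these were 204 of 264 (77.3%) and 67 of 134. Both shares were below those of shared regions, of which 99.7% (SW480 list) and 99.3% (SW620 list) had H3K4me2 in the other line. Below 1.5 kb the shares were 72.0% line-only and 97.9% shared in the SW480 list, and 40.5% and 96.8% in the SW620 list. H3K4me2 regions covered 78.8 Mb in SW480 and 84.8 Mb in SW620, the SW620 list being the longer.

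Acetylation of line-only and shared regions was compared over all widths and by width. H3K27ac of SW480 lay on 51.9% (50.2 to 53.7) of SW480-only and 94.3% of shared SW480 regions. H3K27ac of SW620 lay on 62.6% (59.7 to 65.4) of SW620-only and 83.6% of shared SW620 regions. The contrast varied with width. Below 1.5 kb the SW480 shares were 42.3% (40.3 to 44.3) line-only and 70.2% (68.2 to 72.2) shared, and the SW620 shares 52.8% (49.3 to 56.2) and 44.7% (42.9 to 46.6), the opposite order. From 2 kb upwards the shares were 90.5% line-only and 99.4% shared in SW480, and 97.8% and 97.3% in SW620. The lower share on line-only regions was thus present by width in SW480 and not in SW620. In the other line 15.4% (14.1 to 16.7) of SW480-only and 24.5% (22.1 to 27.1) of SW620-only regions had H3K27ac. Shared regions had it in the other line at 83.7% (SW480 list) and 94.3% (SW620 list).

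Followed region by region, SW480-only regions most often had H3K4me2 alone in SW620, whether or not they were acetylated in SW480. Of the 1608 with H3K4me2 and H3K27ac in SW480, 814 (50.6%) had H3K4me2 without H3K27ac in SW620, 439 (27.3%) had both and 346 (21.5%) had neither. Of the 1410 with H3K4me2 alone in SW480, 970 (68.8%) had the same in SW620 and 409 (29.0%) had neither. SW620-only regions most often had neither mark in SW480. Of the 691 with both marks in SW620, 335 (48.5%) had neither in SW480, 240 (34.7%) had both and 103 (14.9%) had H3K4me2 alone. Of the 388 with H3K4me2 alone, 259 (66.8%) had neither in SW480. The order of the lines says nothing of which state came first.

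**Figure D5:**
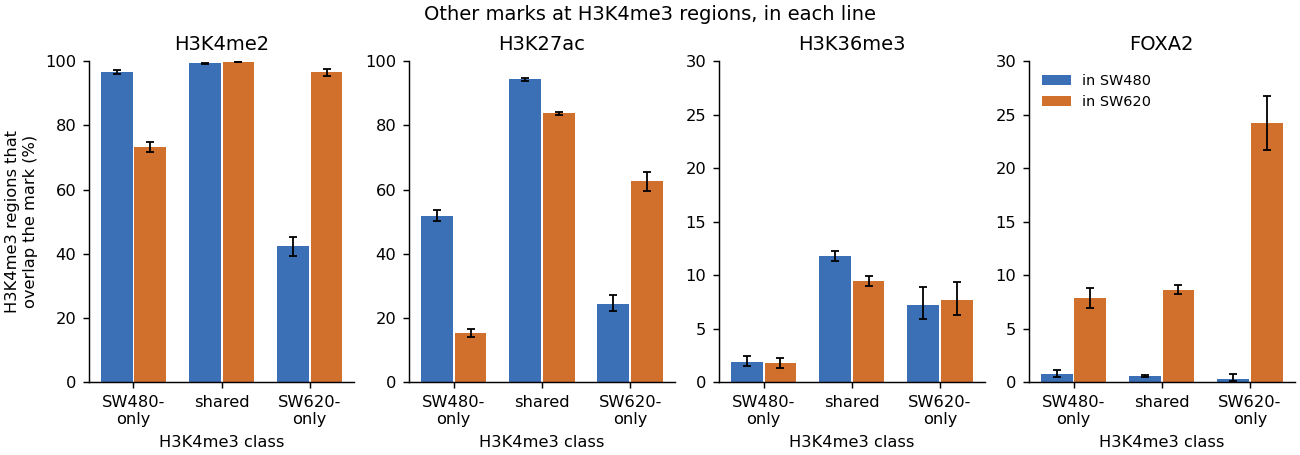
Percentage of H3K4me3 regions that overlap each other mark, for SW480-only, shared (SW480 list) and SW620-only regions, with the mark taken from SW480 (blue) or SW620 (orange). Error bars are 95% Wilson intervals, and the vertical axes of H3K36me3 and FOXA2 end at 30%. H3K4me2 of the other line lies at 73.3% of SW480-only and 42.3% of SW620-only regions, and SW620 FOXA2 peaks lie in 24.2% of SW620-only regions.

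FOXA2 peaks of SW620 lay in 270 of 1118 SW620-only regions, 24.2% (21.7 to 26.7), and in 245 of 3123 SW480-only ones, 7.85% (6.95 to 8.84). Shared regions held one in 8.65% (SW480 list) and 8.56% (SW620 list). Below 1.5 kb the share was 24.1% (21.3 to 27.2) at SW620-only regions, against 7.98% (6.94 to 9.16) at SW480-only ones. Shared regions of that width held one in 12.0% (SW620 list) and 15.1% (SW480 list), so narrow SW480-only regions were below, and narrow SW620-only regions above, the shared ones. Among SW620-only regions with H3K4me2 but no H3K27ac in SW620, 21.1% (17.4 to 25.5) held one, against 26.5% (23.3 to 29.9) with both marks. SW620-only regions with neither mark in SW480 held one in 27.5% (24.2 to 31.1), and those with both in SW480 in 21.3% (16.8 to 26.7), so the intervals met. Among SW480-only regions the share was 22.3% (18.8 to 26.3) where SW620 had both marks and 6.55% (5.50 to 7.78) where it had H3K4me2 alone. SW480 FOXA2 peaks lay in 25 SW480-only regions, 0.801% (0.543 to 1.18), and 3 SW620-only regions, 0.268% (0.0913 to 0.786). Shared regions held one in 0.580% (SW480 list) and 0.566% (SW620 list). The FOXA2 lists held 5207 peaks in SW480 and 12372 in SW620. The FOXA2 libraries had 0.590% of tags in peaks in SW480 and 2.25% in SW620.

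H3K36me3, the transcribed-body mark, overlapped line-only regions unequally. In their own line 60 of 3123 SW480-only (1.92%) and 86 of 1118 SW620-only regions (7.69%, 6.27 to 9.40) overlapped it, against 11.8% and 9.81% of shared ones. Below 1.5 kb the SW620 values were 5.03% (3.71 to 6.77) line-only and 1.30% (0.937 to 1.79) shared, and the SW480 values, in the opposite order, 0.954% (0.631 to 1.44) and 1.78% (1.29 to 2.46). The SW620-only regions had H3K36me3 as often in SW480, 7.25% (5.87 to 8.92), where no H3K4me3 was called.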

How the data were processed

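ChIP-seq of SW480 and SW620 was deposited as 10 region lists, 1 per antibody and line. Per the file headers, the authors ran HOMER findPeaks on every library with the line's own input as control, at a false discovery rate of 0.001. Histone peaks of 1000 bp were stitched into regions and had to exceed input and local background 4-fold, and FOXA2 peaks of fixed size 2-fold. Positions are on hg19 (submitters' processing notes); aligner and HOMER version: not given in the sources used here. The deposited score was 1 in every row, so only the deposited start and end positions were analysed, and strength within a region is unknown. Tag totals came from the file headers.

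Regions of 1 line that overlapped each other were merged for covered lengths, splits and union regions. Python 3.11.15 with pandas 2.3.3 and numpy 2.4.6 gave the overlaps. The code was tested on simulated data, and 18 counts were checked to equal those of bedtools 2.31.1. Wilson intervals are from scipy 1.17.1 and figures from matplotlib 3.10.9. With 1 library per group no test was possible. Named regions were the 10 widest line-only regions per line, the 5 largest width differences per direction, the 5 domains with most pieces per line and the widest domain in both. Width differences needed 2000 bp in either line. Flanks of 20 kb, neighbour runs and CG counts were added after the values were seen. Of 15 background gene names, 6 had a RefSeq promoter window. The members and lists were chosen with earlier results of these data known. No hg19 annotation was used here, so the gene lists planned were not analysed here. Some of the named regions are not reported here.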

Additional observations from a re-analysis of the deposited data

How the results depend on the processing

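The 16 main values were recomputed under alternative settings. Other values, such as edge shifts, gaps, correlations, runs and chromosome shares, were not. Of 66 alternative values, 31 stayed within the interval of the reported value and 35 lay outside it. SW480-only and SW620-only shares were 22.4% and 13.0% with an overlap of 50% of both regions, 21.1% and 9.75% with 50% of the region itself, 10.8% and 10.5% when both lists were limited to the same number of widest regions, and 2.58% and 1.44% from 2 kb upwards. SW480 had the larger share in all 6 alternatives, though by little with equal numbers, where the shares must nearly match. Narrower and wider shared regions were 6.70% and 2.28% at 1.5-fold and 0.276% each with at least 2 kb in both lines, so narrowing was the more common in 4 of 5 alternatives. Splitting stayed within its intervals in both alternatives.

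For the marks on line-only regions the alternatives were a mark within 1 kb, a mark over at least 50% of the region, regions of at least 2 kb and regions over 5 kb from the other line. H3K4me2 of the other line moved to 67.6% (50% covered) and 77.3% (2 kb) at SW480-only regions, and to 36%, 50% and 36.4% (over 5 kb away) at SW620-only ones. Own H3K27ac moved to 48.1% (50% covered), 90.5% (2 kb) and 49.8% (over 5 kb away) in SW480, and to 58.0% and 97.8% (first 2) in SW620. H3K27ac of the other line moved to 13.3%, 22.3% and 13.4% at SW480-only regions, in the same order, and to 27.5% (within 1 kb), 21.5%, 36.6% and 20% at SW620-only ones. SW620 FOXA2 moved to 9.16% (within 1 kb) at SW480-only regions, and to 29.4% (within 1 kb), 29.1% (2 kb) and 27.1% (over 5 kb away) at SW620-only ones. The order of the lists was the same in each of these alternatives. FOXA2 peaks are too short to cover 50% of a region, so that alternative was not run for them. At 1.5-fold, H3K27ac in SW480 alone marked 43.6% of narrowed regions, and in SW620 alone 11.3% of widened ones. The cause of these moves was not tested.

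No paired analysis was possible because each group has 1 library. A site just under the calling threshold counts as missing, strength within regions is not in the lists, and the SW620 H3K4me3 library was shallower with fewer tags in regions. Its part in the differences was not tested.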

Other observations

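Line-only H3K4me3 regions were also followed along the chromosomes, as runs of neighbouring union regions called in the same line. Of the 3108 SW480-only union regions 57.6% had no SW480-only neighbour, and of the 1109 SW620-only ones 74.6% had no SW620-only neighbour. Runs of 3 or more numbered 154 in SW480, with 538 regions (17.3%), and 22 in SW620, with 82 regions (7.39%). The SW480 list has more line-only regions, and the part of that number in the longer runs was not tested. The longest SW480 runs, 7 regions each on chromosomes 2, 4 and 5, spread over 1362 to 4404 kb, and 1, 2 and 3 of their regions had H3K4me2 in SW620. In a run of 6 at LHX2, a LIM homeobox gene, the regions of 1001 to 1871 bp lay within 46.9 kb on chromosome 9 (126761091 to 126808037). All 6 had H3K4me2 in SW480 and 5 in SW620, while 2 had H3K27ac in SW480 and 0 in SW620. A run of 6 on the same chromosome (129137734 to 129446443) overlaps LMX1B, another LIM homeobox gene, with H3K4me2 at 6 in SW480 and 5 in SW620. In SW620 the longest run, 6 regions on chromosome 12 from 91775186 to 92532545, had H3K27ac at all 6 in SW620 and no H3K4me2 or H3K27ac in SW480. A run of 5 lay inside HDAC4 within 47.4 kb (chromosome 2, 240206863 to 240254309). In SW480, 3 of its regions had H3K4me2 and 2 had H3K27ac. Another run of 5, on chromosome 17 (70349643 to 70578443), had each mark at 4 regions in SW480. A run of 4 narrow regions in KANK1 within 26.5 kb (chromosome 9, 682964 to 709429) had both marks in SW620 and neither in SW480. The other SW620 runs of 4 that were looked at had both marks in SW480 at some or all of their regions.

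Chromosomes differed in their line-only shares. SW480-only regions made up 24.0% (19.4 to 29.4) of the list on chromosome 18 and 24.4% (19.0 to 30.8) on chromosome 21, and 13.5% (10.9 to 16.5) on chromosome 15. SW620-only regions made up 12.0% of the list on chromosome 13 and 10.4% on chromosome 7, against 2.92% on chromosome 19 and 3.18% on chromosome 18. The median log2 width ratio of shared regions, SW620 over SW480, ran from -0.19 on chromosome 18 to 0.06 on chromosome 16. Copy number was not analysed here. Runs and gene names in them were chosen after the values were seen.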
